A study of Mus musculus with 4 samples.

Results

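RNA levels were compared between a culture of immortalized mouse embryonic fibroblasts carrying Minimal Myc and a culture of the same kind of cells carrying Myc. These are 2 of 4 RNA libraries in the study, and the other 2 came from cultures carrying an empty vector or MycN. All 4 cultures grew in DMEM with 10% FBS and were infected with adenovirus for Cre recombinase, which excises DNA between its target sites, and the series design calls the vector cells Myc-deleted. Recovery before harvest is labelled 48, with no unit. The sources used here describe neither the structure of Minimal Myc nor the promoter that drives the transgenes, and each group is 1 culture with 1 library, so no spread between cultures can be given and no test was run. Every statement below is about these libraries.

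Genes were taken from the unscaled FPKM table, in which fragments are expressed relative to the length of the transcript and the size of the library. Of 23366 gene names, 11950 averaged 1 FPKM or more across the libraries and were kept, with means of 1.001 and 0.998 FPKM just inside and just outside that limit. Differences are given as Minimal Myc minus Myc on the log2(FPKM + 1) scale, called the log2 difference below. This scale understates the differences of genes with low values. Runs of 4 values without labels give Minimal Myc, Myc, MycN and vector in that order, and pairs joined by "against" give Minimal Myc first and Myc second. A gene was counted as higher or lower when it differed by at least 2-fold on the log2(FPKM + 1) scale. The deposited tables hold FPKM and no read counts, so the depth behind each value is unknown.

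Myc is a transcription factor that pairs with Max and binds the E-box, the letters CACGTG, in the promoters of genes for ribosome production, nucleotide synthesis and metabolism. Type I interferons are cytokines that cells make when sensors detect foreign or misplaced nucleic acid. They act through the receptor chains Ifnar1 and Ifnar2 and the kinases Jak1 and Tyk2, which activate Stat transcription factors. Together with Irf9 these bind the interferon-stimulated response element in promoters of antiviral genes, and the products of those genes block viral replication or raise antigen presentation on MHC class I. Fibroblasts make and respond to type I interferon.

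The genes that were most clearly higher in the Minimal Myc library were interferon-inducible, so promoters of 6 of them that hold the binding sequence described here are shown first. The sequences are the 160 bases before the start of transcription in RefSeq for build GRCm38.p6, which is later than the mm9 build named in the submitters' processing notes. They run 5′ to 3′ on the strand of the gene, and capitals mark every match on either strand to GAAA, any 2 bases and GAAA again, the core of the interferon-stimulated response element.
Isg15 promoter, chr4:156200819-156200978, minus strand: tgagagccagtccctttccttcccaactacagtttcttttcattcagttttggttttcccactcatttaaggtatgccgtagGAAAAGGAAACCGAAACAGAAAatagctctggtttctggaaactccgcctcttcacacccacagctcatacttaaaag
Ifit3 promoter, chr19:34583369-34583528, plus strand: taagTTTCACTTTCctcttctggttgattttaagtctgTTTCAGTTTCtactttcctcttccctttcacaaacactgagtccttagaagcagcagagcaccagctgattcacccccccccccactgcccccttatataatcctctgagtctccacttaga
Ifit1 promoter, chr19:34640729-34640888, plus strand: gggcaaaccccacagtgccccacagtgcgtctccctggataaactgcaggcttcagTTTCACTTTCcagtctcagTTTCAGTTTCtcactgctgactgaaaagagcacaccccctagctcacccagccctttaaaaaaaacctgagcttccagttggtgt
Bst2 promoter, chr8:71537473-71537632, minus strand: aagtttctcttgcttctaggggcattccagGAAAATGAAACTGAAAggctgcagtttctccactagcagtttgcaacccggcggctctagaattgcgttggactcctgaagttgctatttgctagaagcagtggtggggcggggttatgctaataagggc
Oas1a promoter, chr5:120907526-120907685, minus strand: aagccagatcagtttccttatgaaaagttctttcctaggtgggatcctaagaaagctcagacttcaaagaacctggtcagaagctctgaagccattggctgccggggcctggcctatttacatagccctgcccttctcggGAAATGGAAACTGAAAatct
Gbp3 promoter, chr3:142559884-142560043, plus strand: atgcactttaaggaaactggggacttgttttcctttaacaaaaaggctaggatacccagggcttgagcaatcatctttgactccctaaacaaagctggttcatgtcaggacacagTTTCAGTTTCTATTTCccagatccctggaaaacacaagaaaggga
The Isg15 window held 3 overlapping matches, which began between 78 and 66 bases before the start of transcription, and the other windows shown held 2 each. Gbp3 has another window in the table, not shown, which held no match. In Bst2, Oas1a and Gbp3 the matches also overlapped one another, whereas in Ifit3 and Ifit1 they were separate. Matches were counted in windows of 300 bases, from 250 before to 50 after the start, and a match is a description of letters and not a bound site. Among genes with a window in the table, 15.9% of 346 genes counted as higher in Minimal Myc held the core, against 3.49% of 172 genes counted as lower and 3.69% of all 8590 genes with a window. It was present in 21 of 44 antiviral effectors with a window and in 7 of 8 such interferon-inducible GTPases, of 15 measured. Counts were 4 of 13 for nucleic acid sensors, 5 of 19 for class I genes and 2 of 11 for Irf and Stat genes. They were 1 of 9 for chemokines and 1 of 16 for acute phase, complement and cytokine genes. Cytosolic ribosomal protein genes had 7 of 61, the constitutive proteasome 2 of 25, ribosome assembly 1 of 58 and RNA polymerase I and III 0 of 28. Over all 32851 promoter windows of the table the share was 3.44%. The windows of Ifi44, Irf7, Oasl2, Slfn2, Psmb8, Psmb9 and Tap1, each among the genes described below, held no match.

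The transgenes themselves were read first, as a check of the labels. Myc stood at 32.6 FPKM in Minimal Myc, 141 in Myc, 4.36 in MycN and 22.2 in vector, a log2 difference of -2.08 between the libraries compared. Mycn, the paralog of Myc normally expressed in the embryo, stood at 95.9 in Minimal Myc, 0.275 in Myc, 178 in MycN and 0.390 in vector, a log2 difference of 6.25 and the largest positive one among the named genes. The library labelled Minimal Myc thus had high Mycn and a Myc level between those of vector and Myc. FPKM do not tell whether these fragments came from the cells' own genes or from introduced ones.

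Of the other 10 measured genes of the Myc network, none differed by 2-fold. Max, the partner of Myc, stood at 34.5 FPKM in Minimal Myc, 37.3 in Myc, 36.2 in MycN and 18.8 in vector. Mxd4, which competes with Myc for Max, stood at 18.1, 32.4, 45.2 and 12.8 FPKM. Mxi1 and Mga were also lower in Minimal Myc than in Myc, at 7.97 against 12.1 FPKM and at 5.64 against 8.52. Mxd3 stood at 29.6 against 36.9 FPKM, Mlxip at 9.61 against 10.4, Mnt at 10.0 against 9.99 and Mxd1 at 1.91 against 1.89. Mlx, the Max-like partner of Mlxip, stood at 28.5 against 23.6 FPKM and Mycl1 at 1.33 against 0.676. The 4 libraries thus differed far more in Myc and Mycn than in their partners.

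Across all 11950 genes the median log2 difference was -0.03, and 9719 genes (81.3%) lay within 1.5-fold. In Minimal Myc 567 genes (4.74%) were at least 2-fold higher and 323 (2.70%) at least 2-fold lower, and 197 and 78 genes passed 4-fold. Relative to the median difference the counts were 585 (4.90%) and 304 (2.54%). The authors' scaled table multiplies each library by 1 factor, 2.04 for Myc and 1.28 for Minimal Myc, which moves the median to -0.64. On that scale 320 genes (2.68%) were higher and 2171 (18.2%) lower, so that 12.8% of the genes counted were higher, against 63.7% on the unscaled values. Of the 567 genes counted as higher, 503 had their highest level of the 4 libraries in Minimal Myc, and 92 belonged to the 6 lists of interferon and class I genes. Of the 323 counted as lower, 204 had their lowest level in Minimal Myc, 187 had their highest in Myc, and 0 belonged to those lists. Over all 11950 genes Minimal Myc was the highest library for 4219 and the lowest for 1487, and Myc the highest for 3515. Choosing genes by this pair of libraries favours such extremes.

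**Figure D1:**
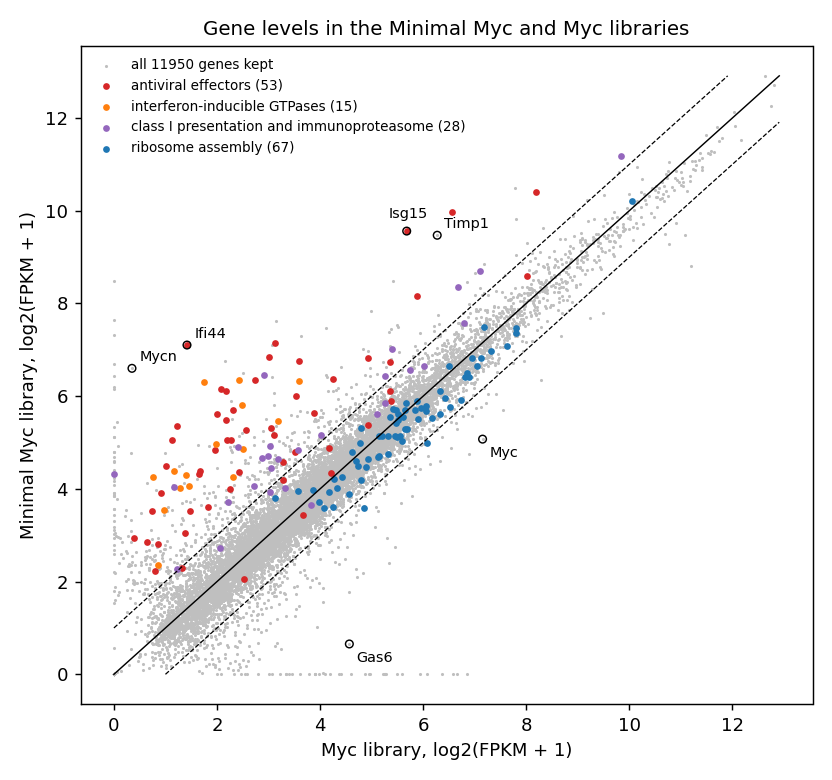
Level of each of 11950 genes in the Myc library (x axis) and the Minimal Myc library (y axis), both as log2(FPKM + 1), with 3 interferon and class I lists and the ribosome assembly list in colour and dashed lines at 2-fold. Isg15, Ifi44 and most coloured interferon genes lie above the upper line, ribosome assembly genes lie close to or below the diagonal, and the genes along the axes are listed at or near 0 in 1 library.

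Interferon and class I genes were higher in Minimal Myc as a group. Of the 162 listed genes, 139 passed the filter, some of them through Minimal Myc itself. Over the 6 lists, 92 of 139 measured genes (66.2%) were at least 2-fold higher and 0 were lower, where 4.74% and 2.70% of all genes were, and the median log2 difference was 1.74. With a filter that read only vector and MycN, chosen after seeing the data, 73 of 119 genes were higher and 0 lower, where 3.94% and 2.44% of all genes were. In 126 of the 139 the Minimal Myc library had the highest level of the 4, against 35.3% of all genes kept. The median member stood at 28.0 FPKM in Minimal Myc, 7.20 in Myc, 5.87 in MycN and 5.74 in vector. The lists were compiled with earlier results of these data known, so the counts describe them and are no independent evidence. In a bulk library, more cells with these RNAs and more of the RNA per cell cannot be told apart.

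The ligands of the pathway had low values. Ifnb1, the type I interferon of fibroblasts, did not pass the filter, at 1.25 FPKM in Minimal Myc, 0.0774 in Myc, 0.0377 in MycN and 0.314 in vector. It was highest in Minimal Myc, but at a level at which an FPKM estimate may rest on few fragments. Ifna1, Ifna2, Ifna4, Ifna5, Ifnk and Ifne were at most 0.306 FPKM in each library, and Ifng was listed at 0 in all 4. Receptor and kinase genes were measured in all libraries and differed less. Ifnar2 stood at 45.3, 23.3, 22.7 and 14.9 FPKM in Minimal Myc, Myc, MycN and vector, and Ifnar1 at 14.9, 9.64, 10.8 and 10.2. Jak1 stood at 60.2 against 42.5 FPKM in Minimal Myc and Myc, Tyk2 at 4.46 against 4.84, Jak2 at 22.3 against 15.3, and the interferon gamma receptor chains Ifngr1 and Ifngr2 at 22.9 against 23.7 and 38.5 against 26.5.

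Usp18, a protease that removes Isg15 from proteins and dampens the receptor, was the 1 of 11 measured genes of this list that passed 2-fold. It stood at 136 FPKM in Minimal Myc, 7.33 in Myc, 0.988 in MycN and 5.74 in vector, an 18.6-fold ratio to Myc. Socs1 and Socs3, which inhibit the Jak kinases, were higher by less than 2-fold, at 32.1 against 16.7 and 24.3 against 12.8 FPKM. Il10rb, a receptor chain shared with interferon lambda, stood at 25.7 against 13.7 FPKM. Over all genes 4.74% were at least 2-fold higher, beside 1 of 11 here. The median of this list, 0.58, turned to -0.04 on the scaled values.

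Transcription factors of the response separated into a group that was much higher and a group that was not. Irf7, which amplifies interferon production, stood at 58.3 FPKM in Minimal Myc, 3.83 in Myc, 0.685 in MycN and 7.41 in vector. Stat2 stood at 35.0, 7.35, 4.14 and 4.64 FPKM and Irf9 at 36.1, 10.0, 4.58 and 6.26. These genes are themselves interferon-inducible, and in each the other 3 libraries lay far below Minimal Myc. Irf3, which is activated by phosphorylation and not by a change in its RNA, stood at 11.6 against 9.68 FPKM. Irf1 stood at 43.1 against 29.9 FPKM, Irf2 at 14.4 against 10.0, Irf5 at 7.99 against 5.92, Stat3 at 36.4 against 26.6, Stat5a at 6.24 against 2.90, Stat5b at 6.97 against 5.49 and Stat6 at 24.9 against 27.3. In all, 4 of 12 measured genes passed 2-fold upward and 0 downward, where 4.74% and 2.70% of all genes did. The list median of 0.50 turned to -0.14 on the scaled values.

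Among nucleic acid sensors and adaptors, 10 of 20 measured genes were at least 2-fold higher and 0 were lower. Over all genes 4.74% were higher and 2.70% lower. On the scaled values 8 of the 20 were higher and 1 lower, where 2.68% and 18.2% of all genes were. The list median was 0.96, and 0.41 on the scaled values. The sensors of double-stranded RNA were among the 10 counted as higher on the unscaled values. Ifih1, which encodes MDA5, stood at 16.4 FPKM in Minimal Myc, 1.57 in Myc, 0.844 in MycN and 2.85 in vector. Ddx58, which encodes RIG-I, stood at 50.02, 11.2, 6.87 and 7.497 FPKM, and Dhx58, their regulator, at 29.4, 4.04, 2.81 and 3.29. Zbp1, a sensor of Z-form nucleic acid, stood at 107, 3.46, 0.407 and 4.88 FPKM and had the largest log2 difference of the list, 4.59. Tlr3 stood at 5.14 against 0.947 FPKM, Trim25, the ubiquitin ligase of RIG-I, at 43.8 against 14.5, and the genes of the interferon-inducible p200 family Ifi204, Mnda and Ifi205 at 87.2 against 16.4, 36.6 against 7.54 and 5.96 against 0.977.

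The adaptors and kinases downstream of the sensors differed less, and of those named here Ikbke passed 2-fold. Mavs, the adaptor of RIG-I and MDA5, stood at 15.7, 15.0, 13.9 and 9.74 FPKM in Minimal Myc, Myc, MycN and vector. Tbk1, which phosphorylates Irf3, stood at 16.2 against 18.4 FPKM in Minimal Myc and Myc, and its relative Ikbke at 6.29 against 2.61. Tmem173, which encodes STING, stood at 27.9 against 18.1 FPKM and Mb21d1, which encodes cGAS, at 9.96 against 8.86. Myd88 stood at 33.9 against 19.4 FPKM, Ticam1 at 4.03 against 4.25, and Tlr4 at 2.02 against 4.02.

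Antiviral effectors made up the largest group. Of 53 measured, 43 (81.1%) were at least 2-fold higher and 0 were lower, where 4.74% and 2.70% of all genes were. The median log2 difference of the 53 was 2.26 (1.73 on the scaled values). In 51 of 53 Minimal Myc was the highest library, against 35.3% of all genes kept. Isg15, a ubiquitin-like modifier, stood at 753 FPKM in Minimal Myc, 50.3 in Myc, 28.4 in MycN and 58.4 in vector. The genes that attach Isg15 to proteins were higher with it, with Uba7 at 15.1 against 3.73 FPKM, Ube2l6 at 113 against 29.4 and Herc6 at 19.5 against 4.36. Bst2, which tethers budding virions, stood at 997, 93.9, 43.8 and 77.9 FPKM, and Ifitm3, which blocks viral entry, at 1350, 290, 230 and 188. Ifi44 had the largest log2 difference of all listed interferon genes, 5.68, with 136 FPKM in Minimal Myc, 1.67 in Myc, 0.809 in MycN and 4.35 in vector.

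The oligoadenylate synthetases, which respond to double-stranded RNA, were higher in Minimal Myc. Oas1a stood at 80.0 against 5.63 FPKM, Oas2 at 32.03 against 1.18, Oas3 at 21.6 against 1.002 and Oasl2 at 114 against 7.01, and Oas1c, at 3.88 against 1.49, did not pass 2-fold. Oas1a, Oas1b, Oas1c and Oas1g are close copies of one another, so the division of fragments among them is uncertain. The Ifit genes, whose products bind foreign RNA ends, were unequal, with Ifit3 at 141 against 7.68 FPKM, Ifit1 at 108 against 11.1 and Ifit2 at 17.4 against 8.76. The dynamin-like Mx2 stood at 39.8 against 1.33 FPKM and Mx1 at 10.4 against 1.77, Rsad2, which encodes viperin, at 13.995 against 0.871, and Eif2ak2, which encodes the kinase PKR, at 48.4 against 13.8. Slfn2 stood at 70.3 against 3.23 FPKM and Rtp4 at 68.4 against 3.51. Of the 53 antiviral effectors 10 did not pass 2-fold, Ifit2 and Oas1c among them. Isg20, an exonuclease, stood at 9.88 against 11.6 FPKM, Slfn5 at 3.18 against 4.78, Apobec3 at 19.4 against 17.6, Ifi27l2a at 40.5 against 29.3 and Ifitm2 at 387 against 257.

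**Figure D2:**
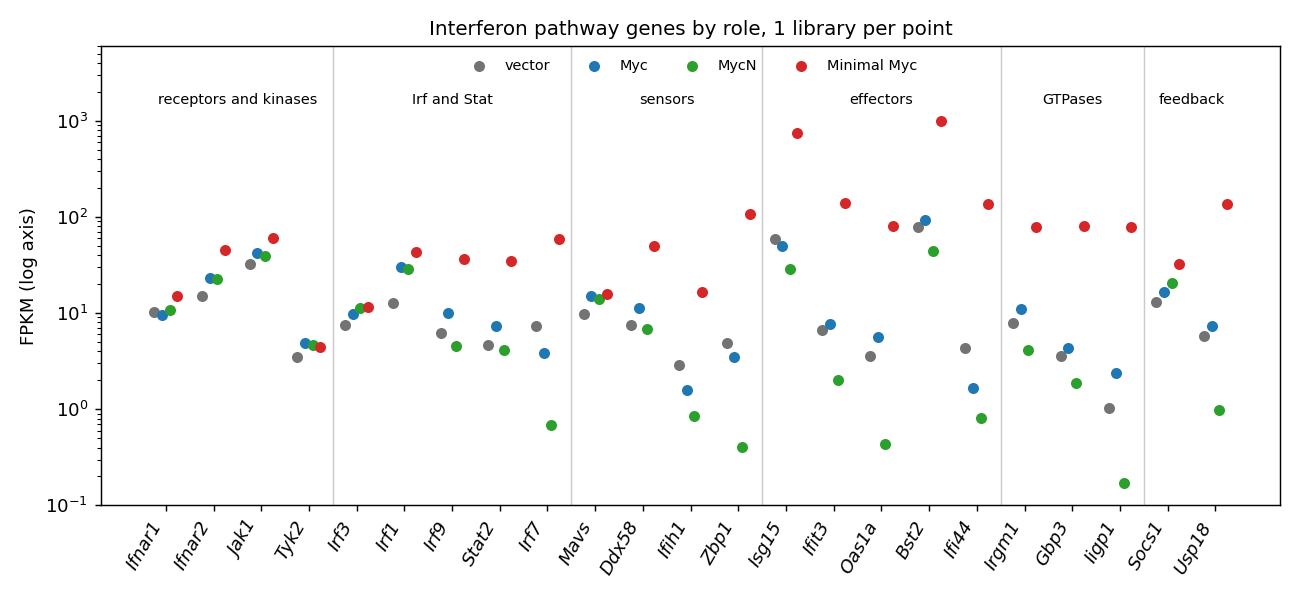
FPKM on a log axis of 23 interferon pathway genes in the 4 libraries, 1 point per library, grouped by role. Minimal Myc points lie close to the others for Mavs, Irf3 and Tyk2 and far above them for Irf7, Zbp1, Isg15 and Usp18.

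Interferon-inducible GTPases, which act on the membranes that enclose intracellular pathogens, were higher in 15 of 15 measured genes of 19 listed. Over all genes 4.74% were higher. The median log2 difference of the 15 was 2.74 (2.39 on the scaled values). Iigp1 stood at 77.9 FPKM in Minimal Myc, 2.37 in Myc, 0.170 in MycN and 1.03 in vector. Gbp3 stood at 80.0, 4.34, 1.88 and 3.54 FPKM, Igtp at 54.7, 4.61, 1.66 and 2.63 and Irgm1 at 78.9, 11.1, 4.09 and 7.86. In all 15 genes the order of the extremes was the same, with Minimal Myc highest and MycN lowest, where MycN was lowest in 11.8% of all genes kept. MycN was also the lowest library for 33 of 53 antiviral effectors and for 64 of 139 genes over the 6 lists. With the filter on vector and MycN 8 GTPase genes were left, and all 8 were higher, where 3.94% of all genes were. Tgtp1 was listed at 0 in all libraries, and Gbp5, Gbp8 and Gbp11 were below the filter, at 2.05 against 0.168, 1.74 against 0.846 and 1.58 against 0.285 FPKM. The smallest difference among the 15 was that of Gbp4, at 4.12 against 0.8001 FPKM. Tgtp2 and Gvin1, at 18.2 against 0.685 and 20.0 against 1.26 FPKM, have rows that differ and near-identical neighbours, and the Gbp genes are also similar in sequence, so values of single members are uncertain.

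Class I presentation and immunoproteasome genes were higher in 19 of 28 measured genes and lower in 0. Over all genes 4.74% were higher and 2.70% lower. The list median was 1.34, and 0.72 on the scaled values. On that scale 8 of the 28 passed 2-fold upward and 0 downward, where 2.68% and 18.2% of all genes did. In contrast to the GTPases, Myc was the lowest library for 13 genes and vector for 13. Over all 11950 genes kept, Myc was the lowest for 1002 and vector for 8054. The heavy chain genes H2-K1 and H2-D1 stood at 414, 136, 159 and 174 FPKM and at 327, 101, 149 and 143 in Minimal Myc, Myc, MycN and vector. B2m, the light chain, stood at 2324, 911, 1073 and 1269 FPKM. Tap1, a chain of the peptide transporter, stood at 28.7, 4.27, 5.97 and 4.78 FPKM and its partner Tap2 at 27.4, 10.9, 17.8 and 6.56. Nlrc5, a transactivator of class I genes, stood at 12.1 against 3.65 FPKM. H2-Q8 and H2-Q7, at 19.1 against 0.000128 and 15.5 against 1.23 FPKM, belong to a family of near-identical genes, so their values are uncertain.

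The proteasome gave a comparison within 1 machine. The inducible catalytic subunit Psmb8 stood at 86.3 FPKM in Minimal Myc, 6.52 in Myc, 8.22 in MycN and 7.77 in vector, and the constitutive subunit it replaces, Psmb5, at 233, 193, 139 and 106. The FPKM of Psmb8 was thus 37.0% of that of Psmb5 in Minimal Myc, 3.38% in Myc, 5.91% in MycN and 7.31% in vector. Psmb9 was 15.7% of Psmb6 in Minimal Myc and 3.63% in Myc, and Psmb10 was 18.1% of Psmb7 in Minimal Myc and 11.1% in Myc. The activator genes Psme1 and Psme2 were higher by less than 2-fold, at 99.7 against 63.5 and 190 against 110 FPKM, although Psme1 was at -0.02 on the scaled log2 difference. Of 31 constitutive proteasome genes, 0 passed 2-fold in either direction, and their median log2 difference was 0.00, with 15 above 0 and 16 below (-0.67 on the scaled values, with 0 past 2-fold).

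**Figure D3:**
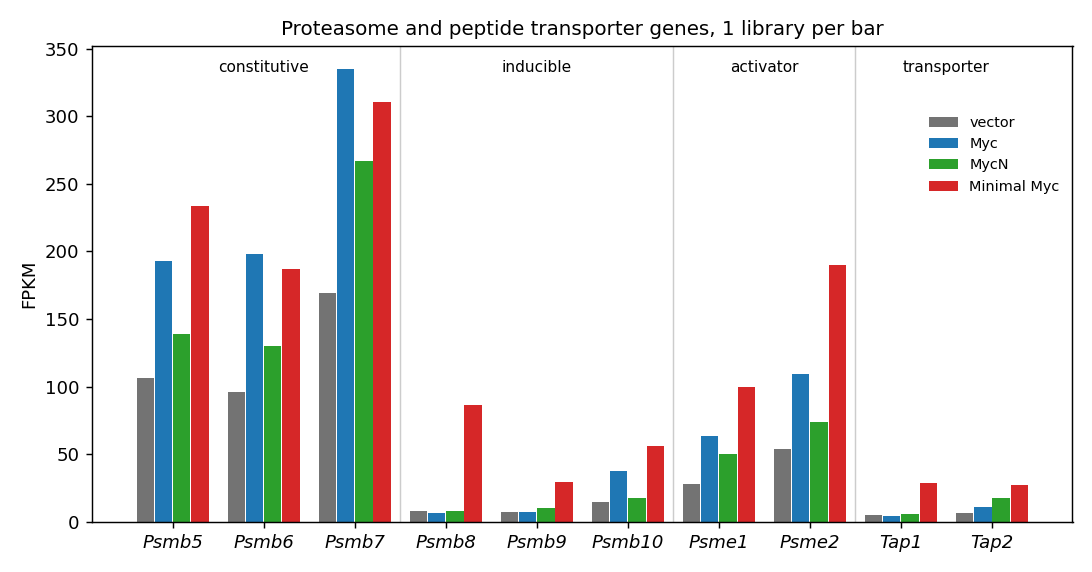
FPKM of constitutive and inducible proteasome subunits, of the proteasome activator and of the peptide transporter in the 4 libraries, 1 bar per library. The bar of Psmb8 reaches 86.3 FPKM in Minimal Myc and stays below 10 in the others, while Psmb5 is at 193 in Myc and 233 in Minimal Myc.

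Markers of immune cells other than Cd14 were low or at 0. Only 3 of 12 immune markers in the table passed the filter, with Cd14 at 13 FPKM in Minimal Myc against 8.70 in Myc, Cd68 at 1.87 against 3.67 and Csf1r at 1.05 against 1.86. Cd53, a leukocyte membrane protein outside the marker list that was singled out after its values were seen, stood at 5.08 against 0.101 FPKM, and the part of such cells in these differences was not tested. In all, the summed level of the 12 was 16.3 FPKM in Minimal Myc, 16.0 in Myc, 16.6 in MycN and 13.2 in vector. The pan-leukocyte gene Ptprc and the macrophage gene Emr1 were both listed at 0 in Minimal Myc and were at most 0.0215 FPKM elsewhere. Fibroblast markers were high in all libraries, with 9 of 10 measured and summed levels from 2348 to 3380 FPKM, although Thy1 was higher in Minimal Myc, at 354 against 115 FPKM, and Fap was below the filter. None of 9 epithelial or 7 endothelial markers passed it. Of the adipocyte, skeletal muscle and neural markers, 2, 1 and 3 of 6 each were measured and none differed by 2-fold.

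Secreted inflammatory genes were higher as well, although not all of them stood apart in Minimal Myc. Of 15 measured chemokines, 11 were at least 2-fold higher and 1 was lower, where 4.74% and 2.70% of all genes were. The median log2 difference was 1.30 (1.03 on the scaled values). Cxcl5, a neutrophil attractant, stood at 358 FPKM in Minimal Myc, 41.4 in Myc, 128 in MycN and 59.4 in vector. Ccl5, an interferon-inducible attractant of T cells, stood at 125, 29.6, 74.7 and 159 FPKM, so here Myc was the low library and vector the high one. Cxcl10, another interferon-inducible chemokine, stood at 173, 40.4, 120 and 63.9 FPKM. Cxcl1 stood at 906 against 222 FPKM, Ccl7 at 791 against 321 and the monocyte attractant Ccl2 at 1193 against 576. Cx3cl1 was the lower one, at 1.60 against 5.47 FPKM. Myc was the lowest library for 9 of the 15, against 1002 of all 11950 genes kept.

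Of 20 measured acute phase, complement and cytokine genes, 12 were higher and 1 was lower, where 4.74% and 2.70% of all genes were. The median was 1.68 (1.12 on the scaled values). Saa3, serum amyloid A of non-hepatic cells, stood at 227 FPKM in Minimal Myc, 30.7 in Myc, 34.4 in MycN and 3.34 in vector. Il6 stood at 23.8, 4.86, 1.08 and 1.58 FPKM and Il33, a nuclear alarmin, at 27.7, 3.85, 0.690 and 9.39. Nos2, the inducible nitric oxide synthase, stood at 11.2 against 1.07 FPKM, Ptx3 at 128 against 27.4 and Ptgs2, which makes prostaglandins, at 179 against 44.5. Complement C3 was the exception, at 5.91 against 15.0 FPKM and 76.9 in MycN. Tnf and Il1b did not pass the filter, and Il1b was listed at 0 in all libraries.

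The NF-kappaB pathway list gave counts near the background, with 1 of 21 measured genes higher, 1 lower and a median of 0.04 (-0.53 on the scaled values). Nfkbiz, an inducible nuclear cofactor, stood at 36.9 against 12.6 FPKM and Traf1 at 2.42 against 6.98. Nfkbia, the feedback inhibitor, stood at 49.1 against 73.2 FPKM. Class II presentation had too few measured genes for a summary, and Cd74, the invariant chain, stood at 2.06 against 6.96 FPKM.

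**Figure D4:**
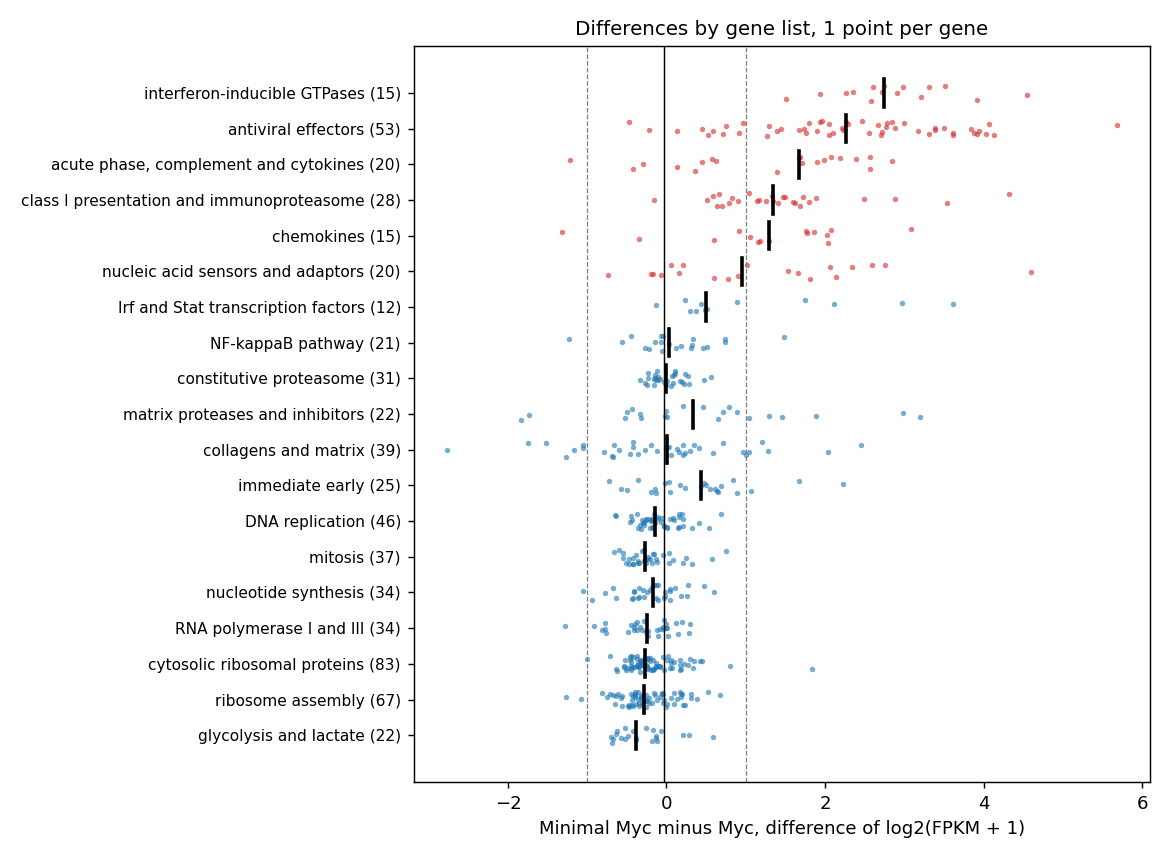
Log2 difference, Minimal Myc minus Myc, of each measured gene in 19 lists (number of genes in parentheses), with a thick line at the median of the list, a thin line at the median of all genes, dashed lines at 2-fold, and red points for lists with a median above 0.5. The interferon-inducible GTPases lie wholly beyond 2-fold, the constitutive proteasome wholly within it, and the medians of ribosome assembly and glycolysis lie at -0.28 and -0.38.

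Genes of ribosome production, the best known targets of Myc, were lower in Minimal Myc by small amounts. In the ribosome assembly list 51 of 67 genes were below 0 and 16 above, the median was -0.28 (-0.94 on the scaled values), and 2 genes passed 2-fold downward and 0 upward, a share of 2.99% beside 2.70% of all genes. With the scaled values 29 of the 67 were at least 2-fold lower, where 18.2% of all genes were. Heatr1, a factor of pre-ribosomal RNA transcription and processing, stood at 10.98 FPKM in Minimal Myc, 27.9 in Myc, 10.9 in MycN and 7.84 in vector. Nop16 stood at 31.0, 66.3, 34.3 and 13.8 FPKM. Nolc1, a nucleolar phosphoprotein, stood at 59.4, 105, 73.5 and 38.1 FPKM. In all of these Minimal Myc lay between vector and Myc. Over the list of 67, Myc was the highest library for 48 genes and vector the lowest for 65. Over all 11950 genes kept, Myc was the highest for 3515 and vector the lowest for 8054. The E-box CACGTG was found in 14 of 58 ribosome assembly genes with a promoter window (24.1%). It was found in 12.1% of all genes kept with a window and in 11.05% of such genes counted as lower. Among cytosolic ribosomal protein genes it was found in 6 of 61 with a window (9.84%).

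RNA polymerase I and III genes had a median of -0.25, with 27 of 34 below 0 and 1 past 2-fold. Polr3g, a polymerase III subunit, stood at 2.61 FPKM in Minimal Myc, 7.75 in Myc, 3.34 in MycN and 2.10 in vector, and the polymerase I subunits Polr1a and Polr1b at 26.6 against 51.0 and 13.8 against 24.96. Nucleotide synthesis had a median of -0.17, and Cad, which starts pyrimidine synthesis, stood at 25.97, 55.2, 31.9 and 16.6 FPKM. In polyamine metabolism, Odc1, the rate-limiting decarboxylase and a textbook Myc target, stood at 104, 212, 112 and 93.7 FPKM, and Srm, spermidine synthase, at 143 against 254. Each of Cad and Odc1 was the 1 gene of its list to pass 2-fold. Relative to the median of all genes Odc1 no longer passed it, and Smox, spermine oxidase, at 19.8 against 9.48 FPKM, passed it upward. Glycolysis and lactate genes had the lowest median of these lists, -0.38, with 0 of 22 past 2-fold, and Ldha stood at 663, 1079, 764 and 455 FPKM. On the scaled values 12 of 22 glycolysis, 12 of 34 nucleotide synthesis, 12 of 34 RNA polymerase I and III and 28 of 83 cytosolic ribosomal protein genes were at least 2-fold lower, beside the same 18.2% of all genes.

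Cytosolic ribosomal protein genes had a median of -0.27, with 63 of 83 below 0. Rps27 was the 1 gene past 2-fold, at 31.8 against 8.22 FPKM, but these genes have many near-identical copies and single values are uncertain. Mitochondrial ribosomal protein genes had a median of -0.06 and 1 of 76, Mrpl11, past 2-fold downward. Translation factors had a median of -0.13 and cytosolic chaperones -0.12, with 0 genes past 2-fold in either. The chromatin cofactors of Myc did not pass 2-fold in any of 23 genes, with Ruvbl2, a helicase of chromatin remodelling complexes, farthest away at 50.7 against 92.0 FPKM. On the scaled values the medians of all these lists lay between -0.72 and -1.04, beside -0.64 for all genes.

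Cell cycle genes differed little on the unscaled values. There, none of 46 DNA replication, 37 mitosis and 15 G1 cyclin and Cdk genes passed 2-fold, and their medians were -0.15, -0.27 and -0.08. On the scaled values 6, 14 and 3 of them were at least 2-fold lower, with medians of -0.80, -0.93 and -0.73, where 18.2% of all genes were lower. Ccnd1, cyclin D1, stood at 57.7 FPKM in Minimal Myc, 114 in Myc, 65.0 in MycN and 81.9 in vector, and Ccnd3 at 98.4 against 55.2 in Minimal Myc and Myc. Among Cdk inhibitors, Cdkn2b, which is induced by Tgfb, stood at 70.5 against 31.5 FPKM and Cdkn1b, which encodes p27, at 16.7 against 28.3. Replication-dependent histone genes, whose RNAs mostly lack poly(A) tails, had a median of -0.30 with 0 of 56 past 2-fold. Minimal Myc was the lowest library for 46 of them, against 12.4% of all genes kept. The libraries were made from polyadenylated RNA, so these values measure a minor fraction of histone RNA.

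Matrix and growth factor genes went both ways on the unscaled values, on which 4.74% of all genes were higher and 2.70% lower. Among collagens and matrix genes, 6 of 39 were higher, 7 were lower and the median was 0.01 (-0.63 on the scaled values). Col6a3, a collagen VI chain, stood at 2.45 FPKM in Minimal Myc, 22.5 in Myc, 25.9 in MycN and 8.74 in vector. Col12a1 stood at 21.0, 3.02, 4.91 and 2.15 FPKM. Col18a1 stood at 0.623 against 4.44 FPKM, Col4a1, a basement membrane collagen, at 19.002 against 56.2 and Dpt at 35.0 against 7.77. Scaled, 2 of the 39 were higher and 15 lower, where 2.68% and 18.2% of all genes were. Minimal Myc was the highest library for 10 genes and the lowest for 10, against 35.3% and 12.4% of all genes kept.

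Of 22 proteases and inhibitors, 6 were higher and 2 lower, where 4.74% and 2.70% of all genes were. Timp1, an inhibitor of metalloproteinases, stood at 708 FPKM in Minimal Myc, 76.3 in Myc, 60.8 in MycN and 144 in vector, a 9.28-fold ratio. Timp3, a matrix-bound inhibitor, stood at 23.2, 79.1, 6.26 and 5.56 FPKM, with Minimal Myc between Myc and the other libraries. Mmp9 stood at 3.22, 14.1, 41.6 and 11.8 FPKM and Mmp13, a collagenase, at 13.4 against 2.87. Of 20 matricellular genes, 4 were higher and 1 lower, with Ctgf, a target of Yap and Tgfb, at 68.5, 16.8, 31.0 and 119 FPKM, Inhba at 72.4 against 23.3, Thbs1 at 528 against 223 and Nov at 3.52 against 27.6. Egr1, a serum response gene, stood at 97.9, 20.1, 24.5 and 37.9 FPKM, and 3 of 25 immediate early genes were higher.

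Growth factor ligands and receptors counted 6 higher and 4 lower of 31, where 4.74% and 2.70% of all genes were. Gas6, the ligand of the TAM receptors, was high in the Myc library alone, at 0.574 FPKM in Minimal Myc, 22.7 in Myc, 0.0134 in MycN and 0.298 in vector. The receptor gene Erbb3 had the same form, at 0.218, 4.09, 0.0700 and 0.0272 FPKM. Hgf stood at 29.3, 2.57, 5.602 and 3.04 FPKM, and the insulin-like growth factor binding proteins Igfbp4 and Igfbp3 at 28.7 against 3.75 and 39.8 against 7.88. Among Wnt modulators, Sfrp1 stood at 33.9, 5.58, 0.138 and 0.198 FPKM and Sfrp2 at 0.457, 8.396, 0.582 and 0.594. In each of these genes 1 or 2 libraries stood far from the rest, and without replicate cultures a difference between transgenes and a difference between cultures cannot be told apart.

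Of 13 imprinted growth genes, 6 were higher and 1 was lower, where 4.74% and 2.70% of all genes were. The median was 0.90 (0.47 on the scaled values). The maternally expressed RNA Meg3 stood at 12.8 FPKM in Minimal Myc, 0.0365 in Myc, 1.21 in MycN and 0.124 in vector, and Rian, a transcript of the same imprinted region, at 9.74, 0.163, 0.988 and 0.134. Dlk1, the paternally expressed neighbour, stood at 185, 44.0, 375 and 151 FPKM. Sgce stood at 15.8 against 2.36 FPKM and Peg3 at 1.71 against 6.77. For 8 of the 13 the Myc library was the lowest, against 1002 of all 11950 genes kept.

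The 15 highest and 15 lowest log2 differences among named genes above 0 FPKM in both libraries ran from 3.92 to 6.25 and from -2.32 to -4.03. Of the highest 15, 11 belonged to the 6 interferon and class I lists. The others included Mycn, the platelet chemokine Ppbp, at 195 against 7.82 FPKM, and Gdf10, a BMP family ligand, at 26.2 against 0.254. None of the lowest 15 belonged to those lists. Besides Gas6, Col6a3, Sfrp2 and Nov they included Pla2g7, a phospholipase that inactivates platelet-activating factor, at 1.02 against 14.4 FPKM, and Enpp2, which makes lysophosphatidic acid, at 0.525 against 7.73. Cryab, a small heat shock protein, stood at 5.70 against 42.7 FPKM, Aldh1a1, which makes retinoic acid, at 0.261 against 6.08, and Mgst2 at 6.70 against 38.2. Mgarp, Gchfr, Nipsnap1, Klk8 and Tspan18 were the other coding genes. Atp6v0c-ps2, at 0.0221 against 15.7 FPKM, is named as a pseudogene, and its value is uncertain because of its parent gene.

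Large differences were also found among 310 small RNA genes, of which 46 were counted as higher and 71 as lower. Of these genes, 38 were listed at 0 in Minimal Myc only and 36 in Myc only. A value of 0 here can be a failed estimate, and no fold is given for such genes. Without small RNA genes 521 of 11640 genes (4.48%) were higher and 252 (2.16%) lower.

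A second assay in the same tables covers 30 genes by NanoString, in which RNA molecules are counted by hybridization to coloured probes. All 30 gave a lower signal in Minimal Myc than in Myc, with a median ratio of 0.617 and 6 genes at least 2-fold lower. In unscaled FPKM 21 of the same 30 were lower and 9 higher, with a median log2 ratio of -0.28. In scaled FPKM 29 were lower. Each scaling factor equals the mean ratio to vector over the rows of this assay, so the last count is not independent of the assay. Cdca7, a Myc target, gave 1122 against 2688 signal units, Ldha 22956 against 52026 and Ncl, nucleolin, 1166 against 2049. Nop56, a core protein of box C/D particles, gave 8078 against 13301 units and Npm1, nucleophosmin, 78556 against 111489.

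The 1 interferon and class I gene in that assay was B2m. It gave 57149 units in Minimal Myc, 62438 in Myc, 22834 in MycN and 46911 in vector, a log2 ratio of -0.13, while its FPKM gave a log2 ratio of 1.35. This gap of 1.48 was the largest of the 30 genes, the next being 0.77, and FPKM lay above NanoString for all 30. With the scaled values the log2 ratio of B2m was 0.68 and the gap 0.81. The NanoString assay thus did not show B2m higher in Minimal Myc, although its log2 ratio ranked 3 from the highest of the 30 genes. The median NanoString log2 ratio of the 30 was -0.70, and the median gap to unscaled FPKM was 0.46. No other gene of the 6 lists was on the assay.

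**Figure D5:**
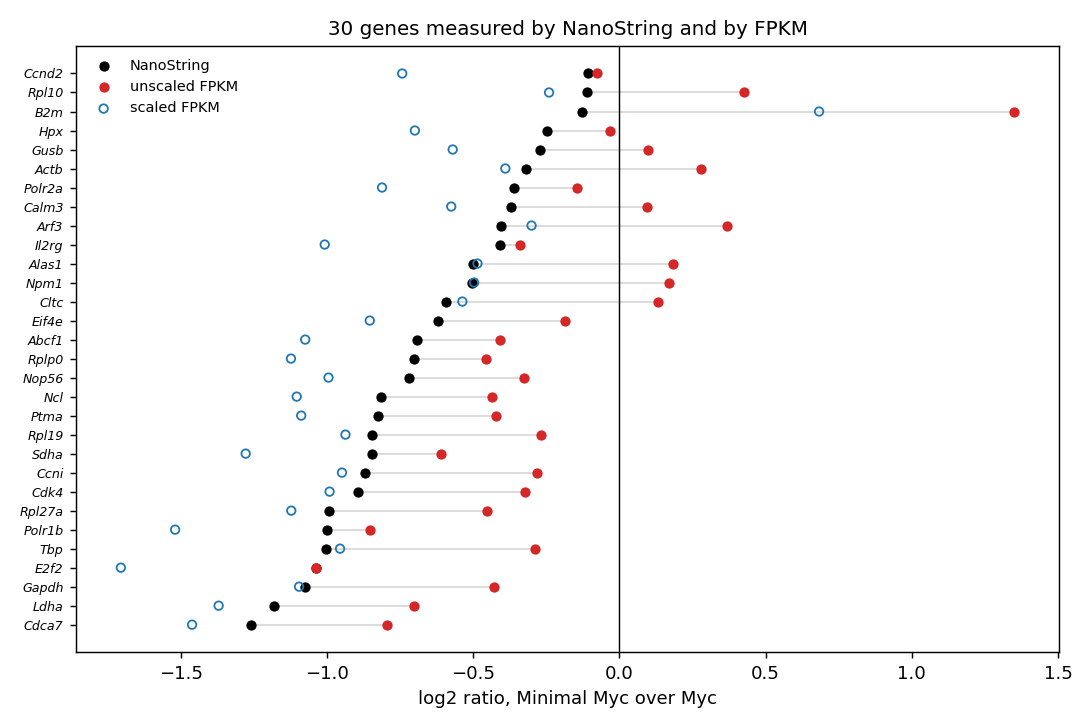
Log2 ratio, Minimal Myc over Myc, of 30 genes by NanoString (black), unscaled FPKM (red) and scaled FPKM (open blue), 1 library per side. All black points lie below 0, red points lie to their right, and B2m has the widest gap between black and red.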

How the data were processed

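RNA was measured in 4 libraries, 1 per group, from polyadenylated RNA in strand-specific libraries, per the labels' protocols. The authors deposited 2 tables of FPKM with gene symbols, and the submitters' processing notes name TopHat2 2.0.11, Cufflinks 2.2.0 and build mm9, with no role or order. Of 26608 rows, 32 hold a deposited NanoString signal, and the sources used here do not state how it was normalized. In the second table each library is multiplied by a single factor. The labels state that ERCC spike-ins were added by cell number, and the tables hold 0 such rows. Depth is unknown.

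Identical rows of a gene were merged and differing rows (189 genes) summed with Python 3.11.15, pandas 2.3.3 and numpy 2.4.6. A pseudocount of 1, a mean of at least 1 FPKM and a 2-fold threshold were used, without tests or p-values, and the code was checked on simulated data. Named genes were the Myc network, the 15 highest and 15 lowest differences (without small RNAs, predicted genes and genes with differing rows), up to 6 members with the largest differences in each of 55 lists, and interferon and inflammatory genes by role. Rian, Gnl3l, Cep250 and further list members were named after their values were seen. The comparison, members and lists were chosen with earlier results of these data known. Alternatives were other pseudocounts, filters, row merging and the scaled table, and a filter on vector and MycN was added after seeing the data. Replicate numbers carry no pairing. Some items are not reported here.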

Additional observations from a re-analysis of the deposited data

How the results depend on the processing

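With 1 library per side no interval, leave-one-out value or test could be had. No paired analysis was possible because each group has 1 library. Over all genes, 28 of 36 alternative counts stayed within 1.5 times the reported count. With a mean of at least 5 FPKM, 368 genes were higher and 188 lower, and 375 and 181 relative to the median, of 8875 genes, so fewer genes were tested. With a pseudocount of 0.1, 494 were lower, and 466 relative to the median, because a smaller pseudocount widens differences of low genes. On the scaled values 320 were higher and 2171 lower, and 655 and 330 relative to the median, since 1 factor of 1.59 separates the libraries. Over the 6 interferon and class I lists, 76 of 139 genes were higher and 2 lower on the scaled values. The shares of all genes on that scale were 2.68% and 18.2%. Of the list counts 756 stayed within 1.5 times and 90 did not, and 52 of those 90 moved on the scaled values. Low values are limited by unknown depth, and 38 small RNA genes are listed at 0 in Minimal Myc only.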

Other observations

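In several lists outside the comparisons above, single members stood apart. Of 18 Atf4 targets, 3 were at least 2-fold higher and 1 lower in Minimal Myc, where 4.74% and 2.70% of all genes were. Their median log2 difference of 0.20 became -0.43 on the scaled values. Cth, which makes cysteine, stood at 37.1 FPKM in Minimal Myc, 6.47 in Myc, 3.84 in MycN and 6.24 in vector, and Ddit4, an inhibitor of mTORC1, at 17.2, 48.8, 42.9 and 8.97. Of 41 lysosome genes, 5 were higher and 0 lower, where 4.74% and 2.70% of all genes were. On the scaled values 1 of the 41 was higher and 4 lower, where 2.68% and 18.2% of all genes were. Ctsk, the protease cathepsin K, stood at 15.9, 1.21, 4.59 and 3.71 FPKM and Lamp2, a lysosomal membrane protein, at 188, 78.3, 89.6 and 73.5. In the respiratory chain 1 of 54 genes passed 2-fold, Ndufa1, a complex I subunit, at 215 against 77.2 FPKM. Of 20 cholesterol synthesis genes 1 passed it, Nsdhl, at 12.6 against 5.71 FPKM. Hmox1, heme oxygenase, was the 1 of 15 Nrf2 targets past 2-fold, at 64.8 against 153 FPKM. None of 23 genes of endoplasmic reticulum folding, 38 tRNA synthetases and 16 serine and folate enzymes passed it. The medians of these lists were slightly above 0, at 0.08, 0.18 and 0.05, with 14, 22 and 9 genes above 0. The respiratory chain had a median of 0.09, with 33 of 54 above 0. On the scaled values the medians of these 4 lists were -0.57, -0.48, -0.60 and -0.57, beside -0.64 for all genes.

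Pcdh19, a protocadherin, stood at 11.9, 1.51, 2.54 and 5.76 FPKM in Minimal Myc, Myc, MycN and vector, and the integrin gene Itga6 at 3.40, 12.1, 1.42 and 13.2. Among cornified envelope and surface genes, Lce1g stood at 12.2 FPKM in vector, 0.345 in Myc and 5.21 in Minimal Myc and was listed at 0 in MycN, and Krt19 stood at 1.66, 10.6, 4.34 and 13.2. Cnn1, calponin of smooth muscle, stood at 8.82 against 2.46 FPKM in Minimal Myc and Myc and Mylk at 0.439 against 2.06. The ribosomal RNA precursor Rn45s was listed at 0 in vector and MycN and at 995 and 1059 FPKM in Myc and Minimal Myc. The libraries were made from polyadenylated RNA and a value of 0 can be a failed estimate, so no difference is read from Rn45s. Malat1, a nuclear RNA, stood at 64.0, 124, 192 and 381 FPKM and was lowest in Minimal Myc. Outside the small RNAs, Gnl3l was listed at 0 in Minimal Myc and at 19.8 FPKM in Myc, 9.68 in MycN and 9.15 in vector. Cep250 was listed at 0 in Myc and vector and at 13.96 FPKM in Minimal Myc and 15.7 in MycN. These values of 0 can also be failed estimates.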
